A study of Drosophila melanogaster with 15 samples.

Results

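Heads of flies that carried a hairpin transgene against Clic but no Gal4 driver were compared with heads of flies that carried the driver and no hairpin. The comparison used the 5 arrays of the hairpin-only genotype v105975/+ and the 5 arrays of the driver-only genotype elav/+, chosen by their titles, so 10 of the 15 arrays in the series entered the test. In the Gal4-UAS system a UAS transgene is transcribed where the yeast activator Gal4 is made, and elav-Gal4 makes it in neurons. The elav/+ flies carried that driver, the v105975/+ flies carried the UAS hairpin against Clic, and the elav/v105975 flies, described here by their levels alone, carried both. A difference between v105975/+ and elav/+ therefore spans the gain of one transgene, the loss of the other and the chromosomes that came with each, and these cannot be told apart. RNA was taken from homogenates of whole heads, and all strains were, per the labels, raised and handled alike. The sources used here give neither the sex and age of the flies nor the hour of collection, nor whether each array stands for its own cross, so a p-value here reflects the spread between arrays, which may be technical. The values are RMA log2 intensities of 16322 probesets on the Affymetrix Drosophila Gene 1.0 ST array, and a difference of 1 on this scale is a doubling of signal.

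Clic encodes the fly member of the chloride intracellular channel family, proteins that exist in soluble and membrane-bound forms. A hairpin RNA is cut by Dicer-2 into short interfering RNAs that guide Argonaute-2 to matching transcripts. A UAS hairpin without Gal4 is meant to be silent, and such flies serve as a control. The same small RNA machinery defends flies against viruses, alongside a second defence in which the receptor Sting binds cyclic dinucleotides and, through the NF-kB factor Relish, raises a set of antiviral genes. The head holds the brain and the eyes together with a layer of fat body, the tissue that stores lipid and secretes yolk proteins, lipoproteins and many immune peptides.

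The defining genes of a head were bright in both genotypes. The mean log2 level of 18 neuron markers ran from 9.92 to 10.02 over the elav/+ arrays and from 10.01 to 10.10 over the v105975/+ arrays, and that of 31 photoreceptor markers from 10.23 to 10.31 and from 10.26 to 10.32. Markers of male accessory gland stayed between 3.36 and 3.57 and those of gut between 3.71 and 3.92 on the same scale, and none of these lists' genes passed the test. Array medians lay between 6.16 and 6.24, and any pair of the 10 arrays correlated at 0.990 to 0.996. In principal components of the 10 arrays, the first component held 21.1% of the variance and put all 5 v105975/+ arrays, from 26.0 to 91.1, apart from the elav/+ arrays, from -70.3 to -26.1.

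Each adjusted p given is from limma. In this fit, 721 probesets passed an adjusted p of 0.05, which is 4.42% of those tested, with 284 higher (1.74%) and 437 lower (2.68%) in v105975/+. A further 2165 had an unadjusted p under 0.05 without passing. The median size of the called differences was 0.39 on the log2 scale, with quartiles of 0.31 and 0.58, and 179 (1.1%) were at least 1.5-fold, 74 of them higher and 105 lower. Signals differed at least 2-fold for 29 probesets that were higher and 23 that were lower. For 665 of the called probesets the 5 arrays of one genotype lay wholly above the 5 of the other, a separation shown by 7.19% of all probesets. The count fell in each fit that left out 1 array, to between 407 without elav/+ replicate 3 and 633 without elav/+ replicate 1, and 351 probesets (2.15%) passed in all 10 of those fits. Called genes named below passed in all of those fits unless the highest adjusted p among them is given. The plot of level against difference shows that the leading changes spanned the whole range of brightness.

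**Figure D1:**
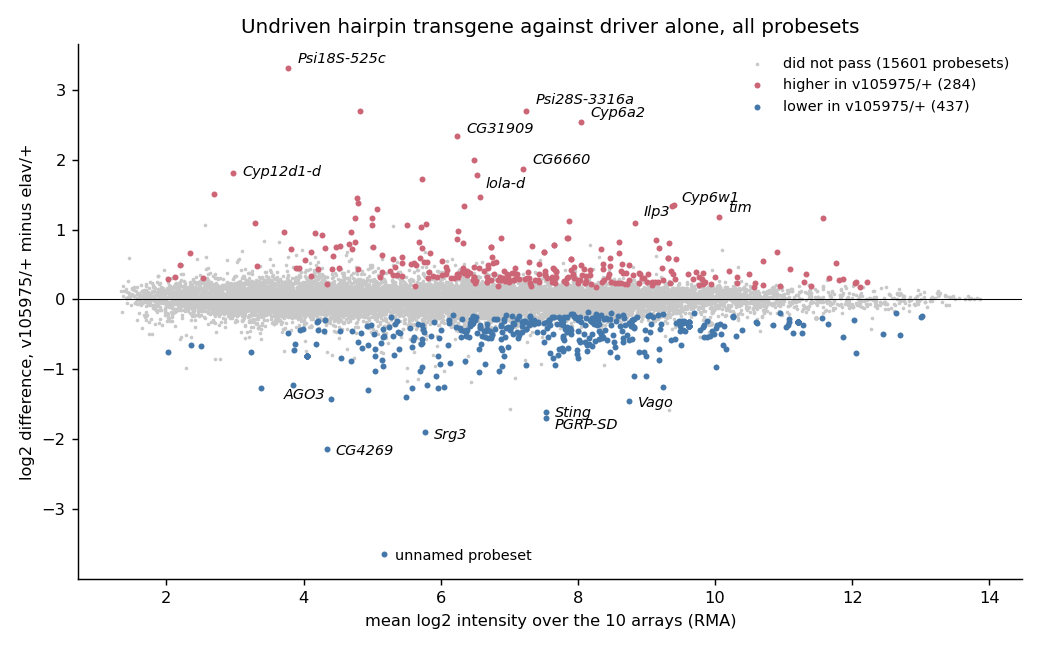
Log2 difference of v105975/+ minus elav/+ (vertical) against the mean log2 intensity over the 10 arrays (horizontal) for 16322 probesets, with the 284 that were higher in red, the 437 that were lower in blue and the rest in grey. The snoRNA Psi18S-525c lies highest, at 3.30, and an unnamed probeset lowest, at -3.65.

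Clic itself, the target of the hairpin, was at 9.23, 9.14, 9.15, 9.17 and 9.09 in elav/+ replicates 1 to 5 and at 8.85, 8.97, 8.96, 8.86 and 9.05 in v105975/+. The groups did not overlap, and the nearest pair differed by little (9.05 against 9.09). The log2 difference was -0.22 (95% confidence interval -0.34 to -0.10), an adjusted p of 0.0468 close to the threshold. Leaving out 1 array lost the call in 9 of 10 fits, and only without v105975/+ replicate 5 did it stay past the threshold (adjusted p = 0.0392 against a highest of 0.105 without v105975/+ replicate 1). In elav/v105975, where the hairpin was driven, the level ran from 8.28 to 8.50. None of the other 20 chloride channel and transporter genes passed the test.

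Genes linked to the transgenes by promoter, landing site or marker were read, and none passed the test. The levels of elav and tio do not measure the transgenes themselves. Transcripts of elav, the neuronal RNA-binding protein gene whose promoter drives Gal4, differed by -0.08 (adjusted p = 0.428). The gene tio, which lies beside a landing site used for some hairpin collections, differed by -0.02 (adjusted p = 0.926). The eye pigment transporter gene w, which marks many fly transgenes, ran from 7.31 to 7.62 in elav/+ and from 7.02 to 7.38 in v105975/+, a difference of -0.30 that did not pass (adjusted p = 0.0640). With both transgenes together in elav/v105975, w stood at 11.39 to 11.51.

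Of the 52 gene lists, that of the Sting pathway and its antiviral genes had the highest share of lower calls. The lists and their members were chosen with earlier results of these data known. Their ranks and shares beside those of all probesets are therefore a description and not a test. Of its 15 genes, 7 (46.7%) were lower and none higher, against 2.68% of all probesets that were lower, and the 15 had a median difference of -0.13 against 0.01 over all probesets. Sting, the cyclic dinucleotide receptor, was at 8.48, 8.43, 8.11, 8.15 and 8.52 in elav/+ and at 6.29, 6.61, 6.47, 7.09 and 7.21 in v105975/+. Its signal in v105975/+ was 32.9% of that in elav/+ (log2 difference -1.60, standard error 0.17, adjusted p = 5.97e-04). The elav/+ values of Srg3, a Sting-regulated gene, were 6.93, 6.72, 6.20, 6.74 and 6.99, and its v105975/+ values were 3.72, 4.64, 4.58, 5.27 and 5.91. The v105975/+ arrays spread widely, yet the groups did not overlap, and the log2 difference was -1.89 (standard error 0.34, adjusted p = 0.0105). Srg1, another Sting-regulated gene, fell by 1.27 on the log2 scale, from 6.12 to 6.53 in elav/+ to 4.32 to 5.55 in v105975/+ (adjusted p = 0.00660). Vago, which encodes a secreted protein induced by virus through Dicer-2, was at 9.36 to 9.62 in elav/+ and at 7.29, 8.04, 7.90, 8.17 and 8.71 in v105975/+ (log2 difference -1.46, adjusted p = 0.00288).

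Of the other genes on this list 3 were called lower, and 4 of the 15 had a difference above 0, at most 0.17. The picornavirus restriction gene pst was lower by 0.43 on the log2 scale (adjusted p = 0.00333), and the scavenger receptor gene CG2736 had a log2 difference of -0.38 (adjusted p = 0.0111). Nazo, an antiviral effector downstream of Sting, was dim, at 3.20 to 3.99 in elav/+ and 2.64 to 3.14 in v105975/+, with a log2 difference of -0.75 (adjusted p = 0.0199) that missed the threshold in 3 of the 10 fits without 1 array (highest adjusted p 0.0560). Within v105975/+, replicates 4 and 5 had the highest levels of Sting, Srg3, Srg1, Vago and pst, and within elav/v105975 the same replicate numbers stood highest for each of these 5 genes. Mean levels in elav/v105975 were 6.64 for Sting, 4.82 for Srg3, 4.72 for Srg1 and 8.07 for Vago, close to those of v105975/+.

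**Figure D2:**
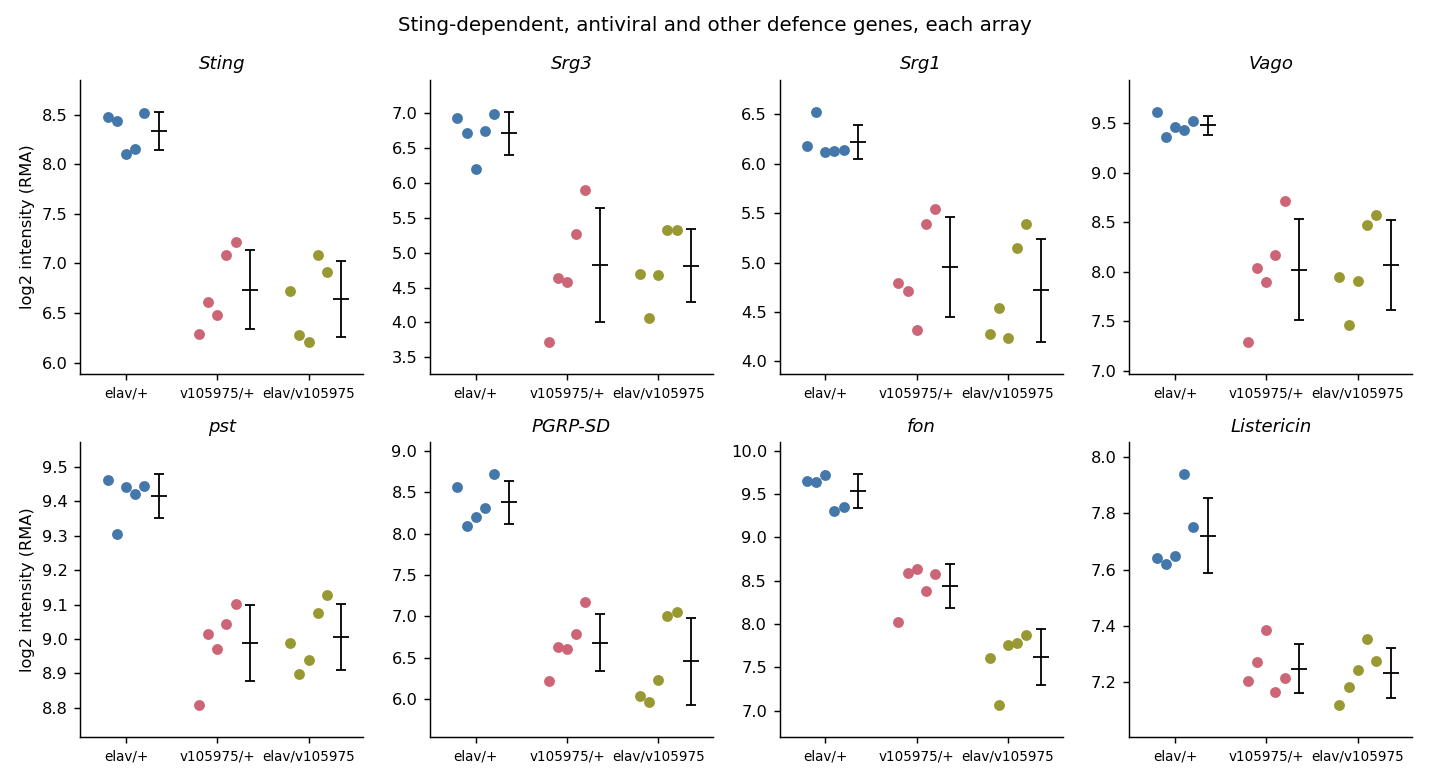
Log2 intensity (RMA) of 8 defence genes in each array of elav/+, v105975/+ and elav/v105975, with replicates 1 to 5 from left to right and the mean and SD of the 5 arrays in black. All elav/+ arrays lie above all arrays of v105975/+ and elav/v105975, as for Sting, whose lowest elav/+ array was at 8.11 and whose highest v105975/+ array was at 7.21.

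A few defence genes beyond the antiviral set fell. PGRP-SD, a secreted receptor for bacterial peptidoglycan, was at 8.10 to 8.72 in elav/+ and at 6.21 to 7.17 in v105975/+ (log2 difference -1.70, standard error 0.17, adjusted p = 3.93e-04). Charon, a nuclear regulator of Relish-dependent transcription, differed by -0.53 (adjusted p = 0.0111). Of 41 peptidoglycan recognition and immune signalling genes 3 were lower and 1 higher (9.76% in all, against 4.42% of all probesets). A difference below 0 was seen for 32 of them, and for 7825 of all 16322 probesets. Among 30 antimicrobial peptide genes 3 were lower (10%, against 2.68% of all probesets) and none higher, and the median was -0.21. Listericin had a log2 difference of -0.47 (adjusted p = 0.00433) and the Toll-induced peptide gene BomT2 one of -0.75 (adjusted p = 0.0176). In the small RNA pathway, 1 of 41 genes passed (2.44%, below the 4.42% of all probesets). It was AGO3, an Argonaute of the germline piRNA pathway, which was dim in these heads, at 4.20 to 4.66 in elav/+ and 2.95 to 3.39 in v105975/+ (log2 difference -1.22, adjusted p = 1.31e-04), with a level between the groups, 3.75, in elav/v105975.

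Several genes of the fat body fell in v105975/+. Of 13 fat body markers 6 (46.2%) fell, against 2.68% of all probesets, none rose, and 2 of the 6 calls held in every fit without 1 array. Of the 13, 11 had a difference below 0, as did 7825 of all 16322 probesets, with a median of -0.27 for the 13. Their mean log2 level ran from 8.36 to 8.93 in elav/+ and from 7.96 to 8.55 in v105975/+, and the 2 ranges overlapped. In whole heads, fewer fat body cells and less RNA per cell cannot be told apart. The clotting factor gene fon, at 9.30 to 9.72 in elav/+, was at 8.03, 8.59, 8.64, 8.38 and 8.57 in v105975/+ (log2 difference -1.09, adjusted p = 9.70e-04). Among the yolk protein genes, Yp3 had a log2 difference of -0.50 (adjusted p = 0.00756). Its relatives Yp2 and Yp1 differed by -0.51 (adjusted p = 0.0210) and -0.25 (adjusted p = 0.0348), and their calls were lost in 3 and 7 of the fits without 1 array (highest adjusted p 0.0567 and 0.0824). The satiety hormone gene fit, which female fat body expresses strongly, was at 7.90, 8.05, 8.45, 9.10 and 9.62 in v105975/+ and at 9.54 to 10.17 in elav/+, so the genotypes overlapped, and the difference of -1.25 (adjusted p = 0.0407) was lost in 8 of those fits (highest adjusted p 0.0920). The part of the fat body in the fall of the defence genes was not tested.

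Of 32 lipid storage and lipoprotein genes 4 were lower (12.5%, against 2.68% of all probesets) and none higher. Of the 32, 11 had a difference above 0, and 2 of the 4 calls held in every fit without 1 array. Apoltp, the precursor of the lipid transfer particle, was at 10.04 to 10.22 in elav/+ and at 9.50 to 9.74 in v105975/+ (log2 difference -0.54, standard error 0.063, adjusted p = 9.70e-04). Lsd-1, the perilipin that coats lipid droplets, differed by -0.44 (adjusted p = 0.0122). The lipophorin precursor gene apolpp, one of the brightest of these genes at 11.72 to 12.23, differed by -0.29 (adjusted p = 0.0239), with the call lost in 3 fits without 1 array (highest adjusted p 0.0633).

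Yolk proteins and fit are female-biased, so the sex-linked RNAs were read beside them. The dosage compensation RNA roX1, made in males, was at 6.67 to 7.19 in elav/+ and at 5.86 to 6.51 in v105975/+ (log2 difference -0.71, adjusted p = 0.0143), lower in the same genotype as the female-biased genes. Its partner roX2 was dim in both, at 2.74 to 3.44 and 2.93 to 3.44. None of 30 male accessory gland or 30 ovary markers passed the test. Heads hold neither organ, and the mean levels of these lists were low in both genotypes (3.36 to 3.57 and 4.57 to 4.76). The absence of calls among them therefore does not bear on the sex of the flies. Of 43 testis and male germline markers 2 were lower and 1 higher (6.98% in all, against 4.42% of all probesets).

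Insulin-like peptides went in both directions. Ilp3, made by the insulin-producing neurons of the brain, was at 8.68, 8.06, 8.26, 8.22 and 8.21 in elav/+ and at 9.20, 9.35, 9.22, 9.51 and 9.60 in v105975/+, a signal 2.13-fold higher (log2 difference 1.09, standard error 0.12, adjusted p = 5.97e-04). Its neighbours in the same neurons gave other values: Ilp2 differed by 0.00 (adjusted p = 0.998, 95% confidence interval -0.14 to 0.14) and Ilp5 by 0.52 (adjusted p = 0.119). Ilp6, the insulin-like peptide of the fat body, was lower without overlap, at 9.22 to 9.34 in elav/+ and 8.53 to 8.86 in v105975/+ (log2 difference -0.57, adjusted p = 7.47e-04). ImpL2, a secreted protein that binds insulin-like peptides and blocks their action, was at 6.90 to 7.33 in elav/+ and 5.61 to 6.25 in v105975/+ (log2 difference -1.04, adjusted p = 9.70e-04). Thor, the translation repressor 4E-BP that insulin signalling holds down, differed by -0.27 (adjusted p = 0.0237), lost in 5 fits without 1 array (highest adjusted p 0.0570). These 5 calls, counting the short neuropeptide F gene sNPF (0.18, adjusted p = 0.0348, highest adjusted p 0.0815), came from 32 genes of insulin and growth signalling. That is 15.6%, against 4.42% of all probesets.

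Detoxifying enzymes had calls on both sides. Of 82 cytochrome P450 genes, the haem oxidases that modify hormones, lipids and foreign compounds, 8 were higher and 9 lower, 20.7% in all against 4.42% of all probesets, and the family's median difference was 0.00. Cyp6a2, a P450 linked in flies to insecticide resistance, was at 6.87, 6.91, 6.87, 6.56 and 6.70 in elav/+ and at 9.27, 9.54, 9.34, 9.22 and 9.24 in v105975/+. That is 5.81-fold more signal (log2 difference 2.54, standard error 0.085, adjusted p = 6.32e-08), and elav/v105975 ran from 9.03 to 9.49. Cyp6w1 rose by 1.34 on the log2 scale, with elav/+ at 8.56 to 8.87 and v105975/+ at 9.87 to 10.24 (adjusted p = 1.23e-05). The mitochondrial P450 gene Cyp12d1-d was near the bottom of the intensity range in elav/+, at 1.86 to 2.38, and at 2.96, 3.88, 4.32, 5.01 and 3.23 in v105975/+ (log2 difference 1.81, standard error 0.33, adjusted p = 0.0112). Cyp6d2 was higher by 0.77 (adjusted p = 0.0108).

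Among the P450 genes that were lower, Cyp28a5 was at 9.64, 9.42, 9.20, 9.20 and 9.38 in elav/+ and at 8.22, 8.24, 8.31, 8.48 and 8.10 in v105975/+ (log2 difference -1.10, adjusted p = 2.20e-04). Cyp9b2 differed by -0.80 (adjusted p = 2.80e-04) and Cyp6t3, needed for ecdysone synthesis in larvae, by -0.69 (adjusted p = 0.00155). Cyp6g1, whose overexpression gives resistance to DDT, was at 8.71 to 9.001 in elav/+ and at 7.97 to 8.40 in v105975/+ (log2 difference -0.68, adjusted p = 0.00199). The other enzyme families had few calls. Glutathione S-transferases had 1 higher and 1 lower of 35, of which GstE1 rose by 0.67 (adjusted p = 4.41e-04), and UDP-glycosyltransferases had 1 lower of 35. These shares, 5.71% and 2.86%, were near the 4.42% of all probesets. The metal-binding protein gene MtnD was at 4.57 to 5.21 in elav/+ and 3.94 to 4.30 in v105975/+ (log2 difference -0.84, adjusted p = 0.00292).

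The highest fitted difference of any probeset was that of a small nucleolar RNA that lies within another gene. These RNAs guide the modification of ribosomal and spliceosomal RNA, are mostly cut from introns of other genes in flies, and the number in a name such as Psi18S-525 is the uridine of ribosomal RNA that it targets. Of 228 genes annotated as snoRNA, 11 were higher and 3 lower (6.14%, near the 4.42% of all probesets). Psi18S-525c was at 2.07, 2.22, 2.13, 2.47 and 1.74 in elav/+ and at 4.92, 5.55, 5.56, 5.47 and 5.65 in v105975/+. The log2 difference was 3.30 (standard error 0.16, adjusted p = 9.83e-07). The elav/+ values lay below the mean level of the male accessory gland markers in these heads, so they may be background signal and the size of the rise is not well fixed. It lies within Arpc2, a subunit gene of the Arp2/3 actin complex, together with 16 other measured snoRNAs, of which 4 more passed and were higher: Psi18S-525d by 1.73, Psi18S-640a by 1.51, Psi18S-640g by 0.79 and Psi18S-525b by 0.49. The last of these was lost in 5 of the fits without 1 array (highest adjusted p 0.0854). By their names several of these snoRNAs target the same uridine, and whether their probesets share signal was not tested, so the rises may not be separate measurements. Differences among all 17 ran from -0.31 to 3.30, while Arpc2 itself differed by -0.03 (adjusted p = 0.895), at 8.26 to 8.56 in elav/+ and 8.25 to 8.58 in v105975/+.

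The gene dom, which encodes a chromatin remodelling ATPase, also held called snoRNAs. Its intronic snoRNA Psi28S-3316a was at 5.69, 5.96, 5.68, 6.03 and 6.13 in elav/+ and at 8.49, 8.51, 8.77, 8.41 and 8.78 in v105975/+ (log2 difference 2.69, standard error 0.11, adjusted p = 3.19e-07). Psi28S-3316b in the same gene rose by 0.49 (adjusted p = 0.00700), and differences among the 15 snoRNAs measured within dom ran from -0.39 to 2.69. Psi28S-3316a and Psi28S-3316b are named for the same uridine, so their rises too may not be separate measurements. The brightest dom probeset differed by 0.11 (adjusted p = 0.283) and another by 0.04 (adjusted p = 0.924), whereas a dim probeset with the same symbol was at 2.83 to 4.66 in elav/+ and 5.77 to 6.66 in v105975/+ (log2 difference 2.70, adjusted p = 0.00155). The 3 probesets of dom therefore disagreed. The snoRNA lola-d, in an intron of the transcription factor gene lola, was higher by 1.77 (adjusted p = 1.66e-05). Of the 14 called snoRNAs 13 lay within another gene, in 7 host genes, and 6 of these hosts were measured by a probeset of their own symbol. The brightest probeset of each of the 6 did not pass, and the dim dom probeset did. Mean levels in elav/v105975, 5.44 for Psi18S-525c and 8.54 for Psi28S-3316a, were those of v105975/+.

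**Figure D3:**
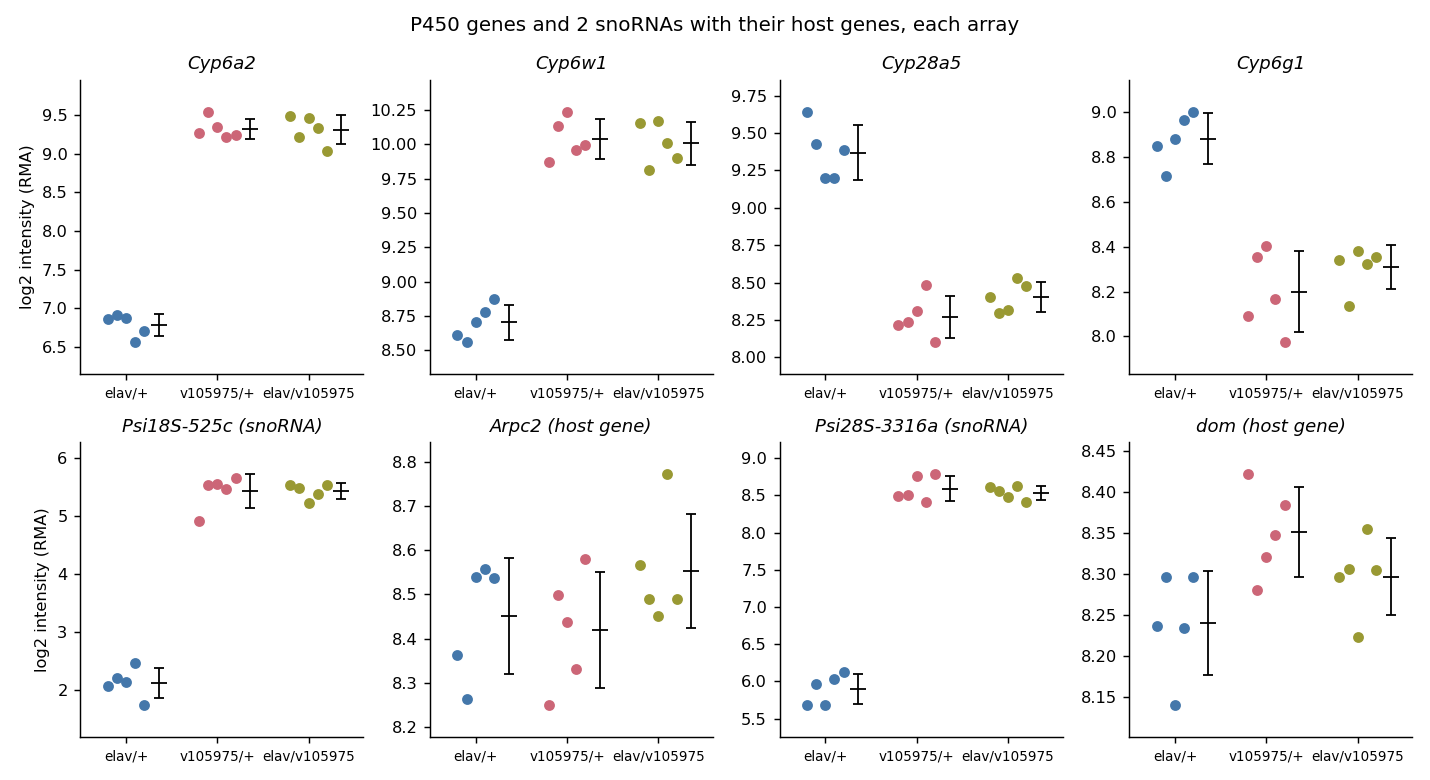
Log2 intensity (RMA) of 4 P450 genes (upper row) and of 2 snoRNAs each beside its host gene (lower row) in every array of elav/+, v105975/+ and elav/v105975, with the mean and SD of 5 arrays in black. Psi18S-525c and Psi28S-3316a stand 3.30 and 2.69 higher in v105975/+, while the arrays of Arpc2 and of the brightest dom probeset overlap; each panel has its own scale.

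Falls among the snoRNAs were smaller. Psi18S-301 was at 7.62 to 8.38 in elav/+ and 7.21 to 7.45 in v105975/+ (log2 difference -0.80, adjusted p = 0.00479), and the snoRNA host transcript Uhg2 differed by -0.82 (adjusted p = 0.00366). Of 24 spliceosomal snRNA genes 5 were higher (20.8%, against 1.74% of all probesets) and none lower. They included copies of U2, which pairs with the branch point of introns: U2:34ABa rose by 0.73 (adjusted p = 0.00107), U2:34ABb by 0.58 (adjusted p = 0.00333) and U2:38ABa by 0.78 (adjusted p = 0.00333). These copies are nearly identical in sequence and their probesets may share transcripts, so the rises are not separate measurements.

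A mitochondrial ribosomal protein gene and a nested pair of genes were among the clearest rises. The gene mRpL37, for a protein of the large mitochondrial ribosomal subunit, was at 7.38 to 7.45 in elav/+ and at 8.20 to 8.40 in v105975/+ (log2 difference 0.88, adjusted p = 1.06e-05), when 70 other mitochondrial ribosomal protein genes gave 2 lower and no further higher calls. Of all 71 genes on that list 4.23% were called, near the 4.42% of all probesets. CG6660, of the fatty acid elongase family, was at 6.04 to 6.46 in elav/+ and at 8.24, 8.20, 8.15, 8.07 and 8.02 in v105975/+ (log2 difference 1.86, standard error 0.077, adjusted p = 3.19e-07). It lies within klg, an immunoglobulin cell adhesion gene needed for long-term memory, which was higher by 0.60 (adjusted p = 2.86e-05) with v105975/+ arrays all within 8.74 to 8.81. Transcripts of overlapping genes may not be fully separated by such probesets.

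Some calls came in runs of at least 3 neighbouring genes in one direction. Such runs held the U2 copies around kek4 (0.35, highest adjusted p 0.0983) and 3 of the Arpc2 snoRNAs, both higher, and 3 lower runs lay on arm 3R. One of the lower runs joined Srg1 to the gene it overlaps, CG7016 (-0.43), and to Elal (-0.86, highest adjusted p 0.0607 in the fits without 1 array). Another held CG6912 (-0.71), CG3984 (-0.83) and CG3987 (-0.41, highest adjusted p 0.0831), and the last held CG15553 (-0.81), Mayo (-0.62) and Prosalpha3T (-0.81), a testis-specific proteasome subunit gene. By arm, 6.13% of probesets on 2L, 4.70% on 2R, 3.20% on 3L, 4.89% on 3R and 3.44% on X passed the test, against 4.42% of all probesets. On chromosome 4 the share was 2.86% of 70 probesets, and none of the 35 on Y passed.

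Differences of neuronal genes were mostly above 0 and small. Of 39 neuropeptide genes 10 were higher and 2 lower (30.8%), against 1.74% and 2.68% of all probesets. Of the 10 higher calls 4 held in every fit without 1 array. The median difference was 0.12, and all rises other than that of Ilp3 were under 0.4. The amidating lyase gene Pal2, which finishes many neuropeptides, was higher by 0.36 (adjusted p = 0.00442), Trissin by 0.35 (adjusted p = 0.00661) and the myosuppressin gene Ms by 0.32 (adjusted p = 0.00963). The somatostatin-like peptide gene AstC was higher by 0.37 (adjusted p = 0.0256), lost in 7 fits without 1 array (highest adjusted p 0.0674). CNMa went the other way, at 6.39 to 7.19 in elav/+ and 5.51 to 6.13 in v105975/+ (log2 difference -0.88, adjusted p = 0.0112). Neuron markers had a median difference of 0.12 with 1 of 18 called (5.56%, near the 4.42% of all probesets). The call was that of the synaptic vesicle protein gene Syn (0.23, adjusted p = 0.0224), and it was lost in 6 fits without 1 array (highest adjusted p 0.0569).

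Most adhesion genes that pair neurons with their partners had differences above 0 but few passed. Of 53 dpr, DIP, beat and side genes, 49 were above 0, against 52.1% of all probesets. Genes of a list are read on the same 10 arrays, so their signs are not independent. Called were 4 (7.55%, against 4.42% of all probesets), all higher, such as dpr19 (0.27, adjusted p = 0.00727) and beat-IIa (0.36, adjusted p = 0.0172). Among 28 voltage-gated channel genes 25 were above 0 and 1 passed (3.57%, below the 4.42% of all probesets), the inward rectifier Irk2 (0.25, adjusted p = 0.0112). The serotonin receptor gene 5-HT2A rose by 0.32 (adjusted p = 0.0174), and the glial genes wrapper and zyd rose by 0.41 (adjusted p = 0.0143) and 0.34 (adjusted p = 0.00784). Those of wrapper and zyd were the 2 calls among 19 glia markers (10.5%, against 4.42% of all probesets). In the eye, 5 of 31 photoreceptor genes were higher and 1 lower (19.4% in all, against 4.42% of all probesets). None of the 5 rises held in every fit without 1 array, among them those of the phototransduction channel genes trp (0.28, highest adjusted p 0.101 without 1 array) and trpl (0.24, highest adjusted p 0.0843). Cpr72Ec, a protein of the corneal lens, was lower, at 10.49, 10.69, 10.63, 10.66 and 10.02 in elav/+ and at 9.80, 9.81, 9.74, 9.33 and 8.98 in v105975/+ (log2 difference -0.97, adjusted p = 0.0127).

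Nucleolar and ribosomal protein genes mostly had differences below 0, and few passed. By contrast, 57 of 78 oxidative phosphorylation genes were above 0, with 1 called (1.28%, below the 4.42% of all probesets). Over all probesets 52.1% were above 0, and the signs within a list are not independent. Of 38 nucleolar and ribosome assembly genes 31 were below 0, with a median of -0.18. Called lower were 3 (7.89%, against 2.68% of all probesets), including the nucleoplasmin gene Nph (-0.42, adjusted p = 0.00922). Among 53 cytosolic ribosomal protein genes 41 were below 0, 3 were lower, with RpS3 at -0.28 (adjusted p = 0.00794), and 1 was higher, RpS21 at 0.32 (adjusted p = 0.0172). The called share was 7.55%, against 4.42% of all probesets. Endoplasmic reticulum genes gave 5 lower and 1 higher of 30 (20% in all, against 4.42% of all probesets). The translocon protein gene Tapdelta was at 9.74 to 9.94 in elav/+ and 9.03 to 9.41 in v105975/+ (log2 difference -0.65, adjusted p = 0.00136), and the secreted trophic factor gene Manf differed by -0.37 (adjusted p = 0.0170). Hn, the phenylalanine hydroxylase gene, differed by -0.43 (adjusted p = 0.00252). Odorant-binding proteins were split 3 against 3 among 47 (12.8% in all, against 4.42% of all probesets). Of these, Obp44a was higher by 0.52 (adjusted p = 0.00333) and Obp28a at -0.72 (adjusted p = 0.0104). Of 14 glycolysis genes 2 were higher (14.3%, against 1.74% of all probesets), Eno (0.24) and Gpdh1 (0.25). Their highest adjusted p in the fits without 1 array were 0.0801 and 0.0678.

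**Figure D4:**
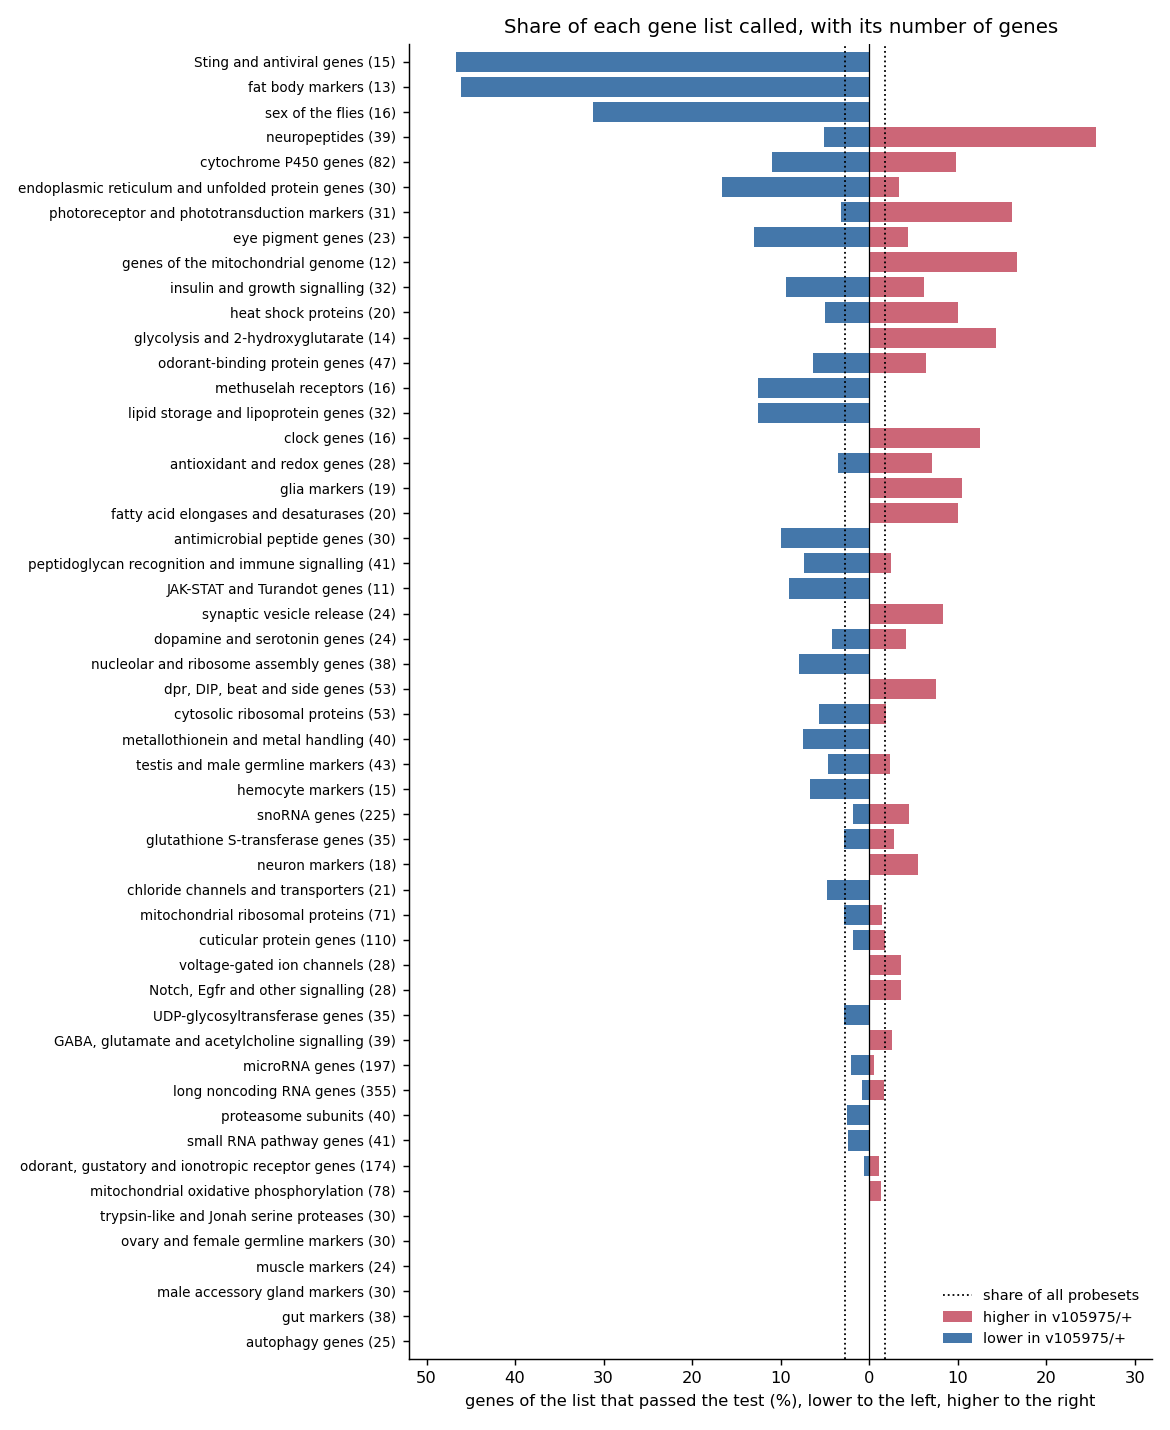
Share of each gene list (percent of its genes, with the number of genes in brackets) that was higher (red, right) or lower (blue, left) in v105975/+ at an adjusted p of 0.05, with the shares over all probesets, 1.74% and 2.68%, as dotted lines. The Sting and antiviral list and the fat body list reach furthest to the left, at 46.7% and 46.2%, and the 6 lists at the bottom have no call. The lists were chosen with earlier results of these data known.

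Of 16 clock genes 2 were called (12.5%, against 4.42% of all probesets), tim and Pdp1, both higher, and neither held in every fit without 1 array. In the fly clock, CLK and CYC activate per and tim, whose proteins repress them, while VRI represses and PDP1 activates Clk, so the levels of these transcripts, other than cyc, swing over the day. Transcripts of tim were at 9.68, 9.01, 9.03, 8.96 and 10.64 in elav/+ and at 10.55, 10.49, 10.53, 10.81 and 10.85 in v105975/+. Replicate 5 of elav/+ lay within the range of v105975/+ and the other 4 below it, and the log2 difference was 1.18 (standard error 0.29, adjusted p = 0.0432). For Clk the elav/+ values were 8.78, 9.18, 9.005, 9.16 and 8.11 and the v105975/+ values 8.35, 8.17, 8.12, 7.46 and 7.42, a difference of -0.94 (adjusted p = 0.0521). The same array stood apart for per (7.33 to 7.99 in the other elav/+ arrays and 8.67 in replicate 5, against 8.51 to 8.66 in v105975/+), with a difference of 0.77 (adjusted p = 0.0738). The difference was 0.70 for vri (adjusted p = 0.0514) and 0.32 for Pdp1 (adjusted p = 0.0401). Transcripts of cyc and of the blue light receptor gene cry differed by -0.02 and -0.07.

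Without elav/+ replicate 5, the log2 differences were 1.47 for tim, 0.99 for per, 0.87 for vri, 0.38 for Pdp1 and -1.13 for Clk. That array was singled out by its values of these same genes, so the differences without it are a description and support nothing. In the 10-array comparison the calls for tim and Pdp1 were each lost in 9 fits without 1 array (highest adjusted p 0.106 and 0.0955). A clock score, the mean of the centred values of these 5 genes with the sign of Clk turned, was -0.23, -0.69, -0.69, -0.71 and 0.35 in elav/+, 0.26, 0.30, 0.32, 0.52 and 0.56 in v105975/+, and 0.06, 0.04, 0.02, 0.37 and 0.39 in elav/v105975. Replicates 4 and 5 of both hairpin genotypes thus had the highest scores, the same arrays that were highest for Sting and Srg3. In elav/+, replicate 5 was likewise highest for the score and for both genes. All v105975/+ scores lay above those of elav/+ replicates 1 to 4, and the score of elav/+ replicate 5 lay above those of v105975/+ replicates 1 to 3. Sting and Srg3 were lower in v105975/+ than in elav/+. With the score as a covariate, chosen after the data were seen, 100 probesets passed in place of 721, of which 87 were among the 721. The score differs between the genotypes, so that fit also removes differences shared with genotype. The hour of collection is not given, and its part in these differences was not tested.

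**Figure D5:**
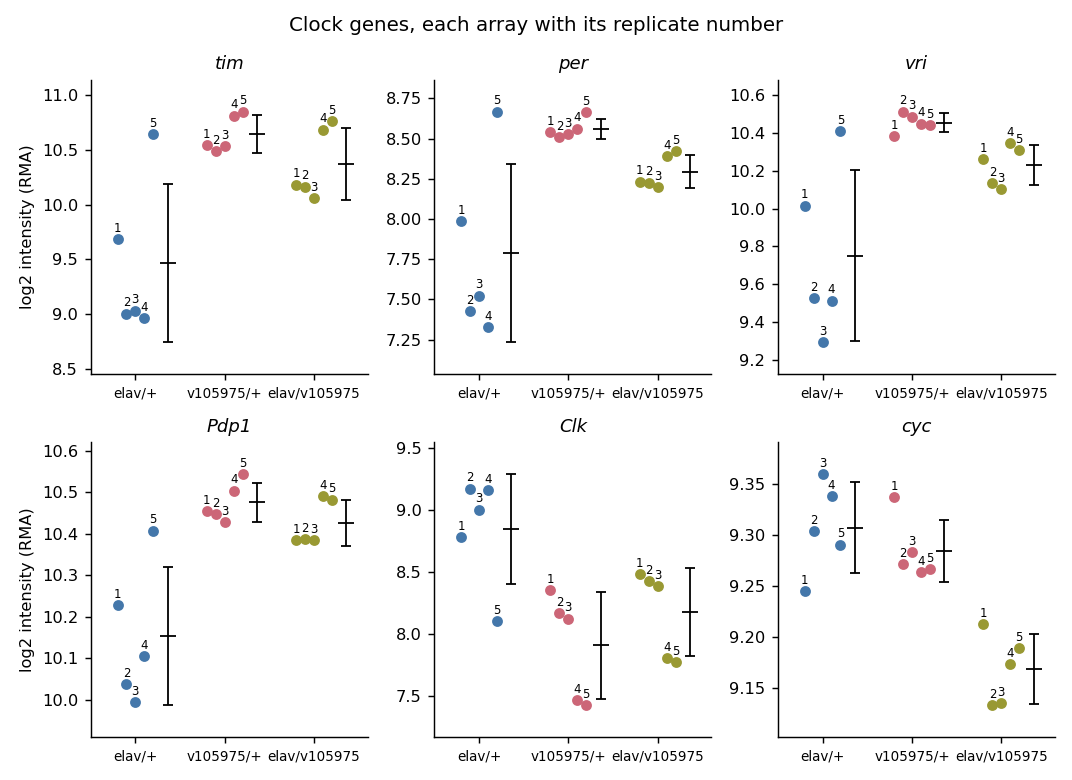
Log2 intensity (RMA) of 6 clock genes in each array, labelled with its replicate number, of elav/+, v105975/+ and elav/v105975, with the mean and SD of 5 arrays in black; each panel has its own scale. Replicate 5 of elav/+ lies with the v105975/+ arrays for tim, at 10.64, and for per, at 8.67, while cyc varies little, from 9.24 to 9.36 in elav/+.

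The calls were also read in arrays left out of the fit that chose them. RMA normalizes arrays together, and a left-out array shares whatever else its genotype shared. The shares below are therefore a description and not an independent check. Among the probesets called without a given array, that array lay nearer to the mean of its own genotype in 75.7% (479 of 633, elav/+ replicate 1) to 92.8% (414 of 446, elav/+ replicate 4). For elav/+ replicate 5, the array with the clock values of the other genotype, it was 79.7% (425 of 533).

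Some genes differed between the single-transgene genotypes while the genotype with both transgenes, read by its levels alone, lay nearer to the driver-only flies. The largest fitted difference of any probeset was of this kind. That probeset, which the annotation used here does not name, was at 7.18, 6.99, 6.86, 7.01 and 6.96 in elav/+ and at 3.44, 3.27, 3.29, 3.53 and 3.24 in v105975/+. The elav/v105975 arrays, at 7.31 to 7.49, lay somewhat above those of elav/+. The log2 difference was -3.65 (standard error 0.075, adjusted p = 6.67e-10). CG18577 was at 4.71 to 5.59 in elav/+ and 3.49 to 3.82 in v105975/+ (log2 difference -1.42, adjusted p = 2.93e-04), with 4.70 to 5.17 in elav/v105975. The long noncoding RNA gene CR43870 was at 5.59 to 5.85, at 4.62 to 5.11 and at 5.48 to 5.91 in the same order (log2 difference -0.80, adjusted p = 0.00107). For mah the levels were 5.68 to 6.55, 4.63 to 5.15 and 5.31 to 6.08 (log2 difference -1.39, adjusted p = 9.70e-04).

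Rises of this kind included a heat shock gene and a mitochondrial transcript. Hsp70Bbb, a copy of the inducible Hsp70 chaperone, was at 4.55, 4.23, 3.91, 4.13 and 5.30 in elav/+, at 5.60, 6.05, 5.97, 5.67 and 5.32 in v105975/+ and at 4.25 to 5.07 in elav/v105975 (log2 difference 1.30, adjusted p = 0.0117), with replicate 5 of each single-transgene genotype almost equal. Hsp70 copies are close in sequence, so its signal may come from several. CG4757 differed by 1.16 (adjusted p = 0.0356), lost in 8 fits without 1 array (highest adjusted p 0.0841). ND2, a subunit of respiratory complex I encoded in the mitochondrial genome, was at 10.26 to 10.75 in elav/+, at 11.07 to 11.36 in v105975/+ and at 10.56 to 10.84 in elav/v105975 (log2 difference 0.67, adjusted p = 0.00301). ND3 of the same complex differed by 0.42 (adjusted p = 0.0236), with overlapping arrays and a call lost in 7 fits without 1 array (highest adjusted p 0.0658). They were the 2 calls among 12 genes of the mitochondrial genome (16.7%, against 4.42% of all probesets). The microRNA gene mir-2b-2 was at 4.81 to 5.91, 4.25 to 4.72 and 5.19 to 5.89 in elav/+, v105975/+ and elav/v105975 (log2 difference -1.02, adjusted p = 0.0139). It was 1 of 5 called among 197 microRNA genes (2.54%, below the 4.42% of all probesets). Genes known from testis split, with tut at -0.61 (adjusted p = 9.10e-04) and ACXC at 0.44 (adjusted p = 0.0185, highest adjusted p 0.0534 without 1 array).

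Several strong changes were in genes with little known function or outside the lists. CG4269 was at 5.39, 5.83, 5.33, 4.95 and 5.53 in elav/+ and at 3.35, 3.25, 2.66, 3.65 and 3.43 in v105975/+ (log2 difference -2.14, adjusted p = 2.28e-04). CG31909 was at 4.36 to 5.51 and at 7.10 to 7.58 (log2 difference 2.33, adjusted p = 2.80e-04). Smaller rises without overlap were those of CG31157 by 1.45 (adjusted p = 5.26e-04), CG18095 by 1.38 (adjusted p = 2.80e-04) and CG18343 by 1.35 (adjusted p = 2.86e-05). Ir41a, an ionotropic receptor of olfactory neurons that senses amines, was higher by 1.16 (adjusted p = 5.18e-04), and mthl8, a receptor of the methuselah family, was at 7.21 to 7.41 in elav/+ and 6.18 to 6.51 in v105975/+ (log2 difference -1.02, adjusted p = 6.45e-05). The arginase gene arg, which overlaps elav, was lower by 0.52 on the log2 scale (adjusted p = 0.0197, highest adjusted p 0.0554 without 1 array), when elav itself did not pass.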

How the data were processed

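Fly head RNA of 3 genotypes was measured with 5 Affymetrix Drosophila Gene 1.0 ST arrays each. As deposited, the values are log2 intensities made by the authors with RMA (background correction, quantile normalization, summary per probeset), with oligo 1.44.0 per the submitters' processing notes. Such normalization hides changes shared by most transcripts. The number of arrays limits the precision.

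The 10 arrays of elav/+ and v105975/+ entered limma 3.58.1 (R 4.3.3; lmFit and eBayes, defaults) as deposited, p-values were adjusted by Benjamini-Hochberg over the 16322 probesets, and an adjusted p of 0.05 was required. Differences are v105975/+ minus elav/+. The fit was checked on simulated arrays. Symbols came from the platform annotation, updated through RefSeq identifiers (13441 probesets with 1 symbol, 13064 of them matched), and 209 probesets were named through the study's supplementary tables, names only. Gene lists used the brightest probeset per gene, and percentages of lists are of measured genes. Neighbours and host genes came from RefSeq (Release 6 assembly).

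The named genes were Clic, elav, w and tio; the 20 highest, 20 lowest and 15 smallest p among called, non-overlapping probesets with 1 symbol; up to 5 called or leading members per list; and runs of 3 or more neighbours. Others, such as arg, Nazo, CG2736, Ilp2, Ilp5, cry, cyc, roX2, Cyp6g1, the host genes and the unnamed probeset, were picked after their values were seen, and which of the rule's genes were printed was decided with values known. The members and lists were chosen with earlier results of these data known. Alternatives covered all 15 arrays, the replicate number as a block (same-numbered arrays of the 2 genotypes were not paired by any label), intensity trend, robust prior, array weights, filters, renormalization, stricter thresholds and leaving out each array.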

Additional observations from a re-analysis of the deposited data

Results flagged for a closer look

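Taking each named gene in each of the 2 genotypes, 16 sets of 5 arrays (6.45%) had 1 array far from the other 4 by Dixon's criterion, where chance alone flags about 1 in 20 groups. The array's log2 value and the range of the other 4 were as follows.

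In elav/+, replicate 5 was at 4.60 for CG18095 (others 3.87 to 4.07), at 10.02 for Cpr72Ec (others 10.49 to 10.69) and at 7.89 for cry (others 8.29 to 8.38). Replicate 1 was at 7.21 for mthl8 (others 7.39 to 7.41) and at 8.27 for the snoRNA Psi28S-3316b (others 8.51 to 8.59). Replicate 2 was at 9.91 for Hn (others 10.01 to 10.04), at 9.30 for pst (others 9.42 to 9.46) and at 6.53 for Srg1 (others 6.12 to 6.18), and replicate 4 was at 4.66 for Ir41a (others 3.997 to 4.15).

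In v105975/+, replicate 1 was at 4.92 for the snoRNA Psi18S-525c (others 5.47 to 5.65), at 9.34 for cyc (others 9.26 to 9.28), at 5.15 for mah (others 4.63 to 4.77) and at 3.44 for roX2 (others 2.93 to 3.07). Replicate 3 was at 7.81 for the snoRNA lola-d (others 7.26 to 7.39), replicate 4 at 9.59 for AstC (others 9.81 to 9.86) and replicate 5 at 7.25 for a dom probeset (others 6.70 to 6.80).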

How the results depend on the processing

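The count of 721 called probesets became 448 with the replicate block, 1084 with an intensity trend, 100 with the clock score as a covariate (added after the data were seen), 246 at an adjusted p of 0.01 and 179 at 1.5-fold or more, and 407 to 633 when 1 array was left out. The deviations of same-numbered arrays of the 2 genotypes correlated at -0.08, 0.02, 0.01, -0.05 and 0.18. A correlation over all probesets cannot show whether same-numbered arrays shared a batch. Replicate 5 had the highest clock score in both genotypes (0.35 in elav/+ and 0.56 in v105975/+). With all 15 arrays 995 passed, without the dimmest 25% of probesets 930, and with probesets of identical values counted once 617. Of the 2475 genes on the lists, 160 were called, against 106 with the replicate block, 33 with the clock score, 62 at 0.01, 58 at 1.5-fold and 97 to 138 when 1 array was left out.

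The log2 difference of Clic, -0.22, lost its call with the replicate block (adjusted p = 0.157 from limma), with arrays centred on their medians (-0.21, adjusted p = 0.0589 from limma), with the clock score (-0.20, adjusted p = 0.425 from limma), at 0.01 and at 1.5-fold (-0.22), and ran from -0.25 to -0.20 when 1 array was left out (adjusted p from limma 0.0392 to 0.105). Its adjusted p ran from 0.0150 to 0.425 over all alternatives. The causes were not tested. Of the dimmest 25% of probesets 1.08% passed, and of the brightest 25% 7.89%.

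Of 123 probesets described by name, 29 kept sign and call in every alternative that included them, of at most 24. Sign changed for 7, none of which had passed. For Ilp2 the log2 difference was 0.0034 after quantile normalization once more, 0.0109 after centring, 0.0753 with the clock score and -0.0411 to 0.0329 when 1 array was left out. With the clock score, cyc was at 0.0262, cry at 0.340 and 1 dom probeset at -0.162. After centring, roX2 was at 0.0020. Without 1 array, tio ran from -0.0605 to 0.0228, Arpc2 from -0.0791 to 0.0103, that dom probeset from -0.0629 to 0.125, cry from -0.158 to 0.0076 and roX2 from -0.0978 to 0.0753.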
